A study of Mus musculus with 2 samples.

Results

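The genes described here are 27 genes of fatty acid, phospholipid and sterol synthesis, chosen by symbol: 9 enzymes of fatty acid synthesis, 6 genes of phospholipid synthesis and fatty acid handling, 9 enzymes of sterol synthesis and 3 regulators. They were followed in 2 single-cell RNA libraries of mouse lung, 1 titled niche and 1 titled distal, both made from cells without the leukocyte surface protein CD45 and both collected 7 days after Labelling-4T1 cells were given into a vein. 4T1 is a mammary carcinoma line that colonises the lung, and its labelling version releases a fluorescent protein that neighbouring cells take up. Of the 27 genes, 24 were listed in both tables, among 10198 genes listed in both. Elovl6 was listed only in the niche table and Lss only in the distal table, which does not make either a count of 0 in the other. Gpam was listed under this symbol in neither table, so its expression was not analysed here. Mouse strain, age, number of animals and the gates that separated niche from distal cells are not given in the sources used here. Each group is 1 library, so no difference between the groups has a replicate check, no p-value was computed, and all intervals are 95% intervals of counting error only.

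Cells build fatty acids from cytosolic acetyl-CoA, lengthen and desaturate them, and join them to glycerol and choline to make phospholipids. The mevalonate pathway uses the same acetyl-CoA for cholesterol. Both branches are controlled by the SREBP transcription factors, which INSIG proteins hold back when sterol is plentiful. In the lung, alveolar type 2 cells are known for this chemistry, because they make surfactant, whose main component is phosphatidylcholine with saturated acyl chains.

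Promoter letters, which the choice by symbol did not use, were compared between the members and all promoters. RefSeq promoter windows of mouse build GRCm38.p6, from 250 bases before to 50 bases after a gene start, were found for 21 of the 27 genes (27 windows). The core of the NF-Y box, CCAAT on either strand, was in 17 of the 27 windows, or 63.0%, against 37.4% of all 32851 windows in the table. By gene, counting any window of a gene, it was found for 6 of 6 sterol enzymes and 3 of 3 regulators. It was also found for 5 of 7 fatty acid enzymes and 2 of 5 phospholipid genes. Genes with several windows have more chances of a match, and the share by gene over all genes was not computed. A sterol regulatory element searched as TCACNCCAC on either strand was found for Hmgcs1 and Pcyt1a, and in 1.24% of all windows. An E-box, CANNTG, was in 77.8% of the member windows and 72.3% of all. Of the 5 stretches of 250 bases printed next, 4 belong to members whose levels the later comparisons turn on, and that of Hmgcs1 is shown because it holds both the sterol element and NF-Y boxes. Each ends just before the gene start, runs 5′ to 3′ on the strand of the gene, and has the NF-Y boxes and the sterol element in capitals. In Fasn, a CCAAT and an ATTGG overlap, and an E-box lies within them. All 5 printed stretches hold an NF-Y box, so they do not stand for the 27 windows, of which 17 hold it. The windows of Acaca, Acsl4, Elovl6, Lpcat1 and Pcyt1a hold none and are not printed. Elovl1 has another window, not printed, that holds no NF-Y box. The windows are Fasn at chr11:120824548-120824797 (minus strand), Elovl1 at chr4:118427843-118428092 (plus), Elovl5 at chr9:77917115-77917364 (plus), Hmgcs1 at chr13:119690101-119690350 (plus) and Cyp51 at chr5:4104698-4104947 (minus). A match of letters is a description and not a binding site.
Fasn: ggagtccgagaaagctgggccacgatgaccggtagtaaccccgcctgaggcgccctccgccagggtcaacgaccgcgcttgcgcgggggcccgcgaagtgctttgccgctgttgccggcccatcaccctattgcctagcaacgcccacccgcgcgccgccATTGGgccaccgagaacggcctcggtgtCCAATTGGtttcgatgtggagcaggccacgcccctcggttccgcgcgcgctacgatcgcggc
Elovl1: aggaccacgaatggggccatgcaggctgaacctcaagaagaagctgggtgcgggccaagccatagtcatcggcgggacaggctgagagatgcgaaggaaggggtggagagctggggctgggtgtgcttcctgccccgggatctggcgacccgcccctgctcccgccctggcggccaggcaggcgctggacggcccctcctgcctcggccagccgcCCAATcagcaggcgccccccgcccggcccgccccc
Elovl5: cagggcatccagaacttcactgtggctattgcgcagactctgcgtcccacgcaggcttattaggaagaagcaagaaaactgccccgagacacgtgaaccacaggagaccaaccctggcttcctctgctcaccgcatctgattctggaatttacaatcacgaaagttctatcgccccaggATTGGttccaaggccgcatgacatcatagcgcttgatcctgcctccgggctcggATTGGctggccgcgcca
Hmgcs1: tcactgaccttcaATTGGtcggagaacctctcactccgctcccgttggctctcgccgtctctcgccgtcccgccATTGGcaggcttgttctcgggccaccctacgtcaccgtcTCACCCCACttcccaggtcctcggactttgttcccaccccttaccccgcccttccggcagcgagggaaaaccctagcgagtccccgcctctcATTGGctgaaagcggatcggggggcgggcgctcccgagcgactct
Cyp51: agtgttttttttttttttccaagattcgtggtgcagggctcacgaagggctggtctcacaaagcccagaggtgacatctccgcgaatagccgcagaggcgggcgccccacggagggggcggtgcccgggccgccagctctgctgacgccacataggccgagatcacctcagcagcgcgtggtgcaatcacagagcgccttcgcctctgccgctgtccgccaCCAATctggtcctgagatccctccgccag

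After filtering, 1423 niche and 1987 distal cells remained, with medians of 2975 and 1975 transcript molecules (unique molecular identifiers, UMIs), and 7 barcode sequences occurred in both tables. Clusters were made without the members and were named from marker genes. The niche cells held 17 alveolar type 2-like, 759 fibroblast-like and 497 endothelial-like cells, and the distal cells 215, 365 and 1308 of these classes. All 9 alveolar type 2 markers were detected in the alveolar type 2-like cells of both libraries. Of these, 6 (Sftpc, Sftpb, Sftpa1, Sftpd, Slc34a2 and Cxcl15) stood in fibroblast-like and endothelial-like cells at a median of 0.0780% and 0.168% of their alveolar type 2 level in the niche library and at 1.04% and 0.822% in the distal library, and in immune-like cells at 0.0191% and 0.702%. This share, multiplied by the alveolar type 2 level of a gene, is used below as the level that free RNA of alveolar type 2 cells alone would give. Median depth per cell was 5592 niche and 5457 distal UMIs in alveolar type 2-like, 3603 and 2168 in fibroblast-like and 2341 and 1715.5 in endothelial-like cells. Levels are CPM, the UMIs of a gene per 1000000 UMIs of its cell class.

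Alveolar type 2-like cells held the highest levels of most of these genes. In the distal library, where 215 such cells were available, 21 of the 24 genes were at least 2-fold higher than in fibroblast-like cells with an interval that excluded equality, and 0 were lower. Over all genes, 6.5% were higher and 31.2% lower by the same rule. The median log2 ratio of the members was 1.59, and that of all genes -0.63. Against endothelial-like cells, 20 of 24 were higher (8.16% of all genes) and 1, Elovl5, was lower (39.5% of all genes). With only 17 niche cells, 14 of 24 were higher than in fibroblast-like cells and 0 lower (5.49% and 9.67% of all genes), and 13 of 23 were higher and 0 lower than in endothelial-like cells (5.36% and 14.4% of all genes). After thinning to 1200 UMIs per cell, a median of 5 of the 24 genes was detected in a niche and 4 in a distal alveolar type 2-like cell, against 1 in the fibroblast-like and endothelial-like cells of both libraries. Alveolar type 2-like cells gave 22.8% of all distal UMIs but a median of 48.9% of the UMIs of a member, from 15.5% for Elovl5 to 96.0% for Scd1.

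**Figure D1:**
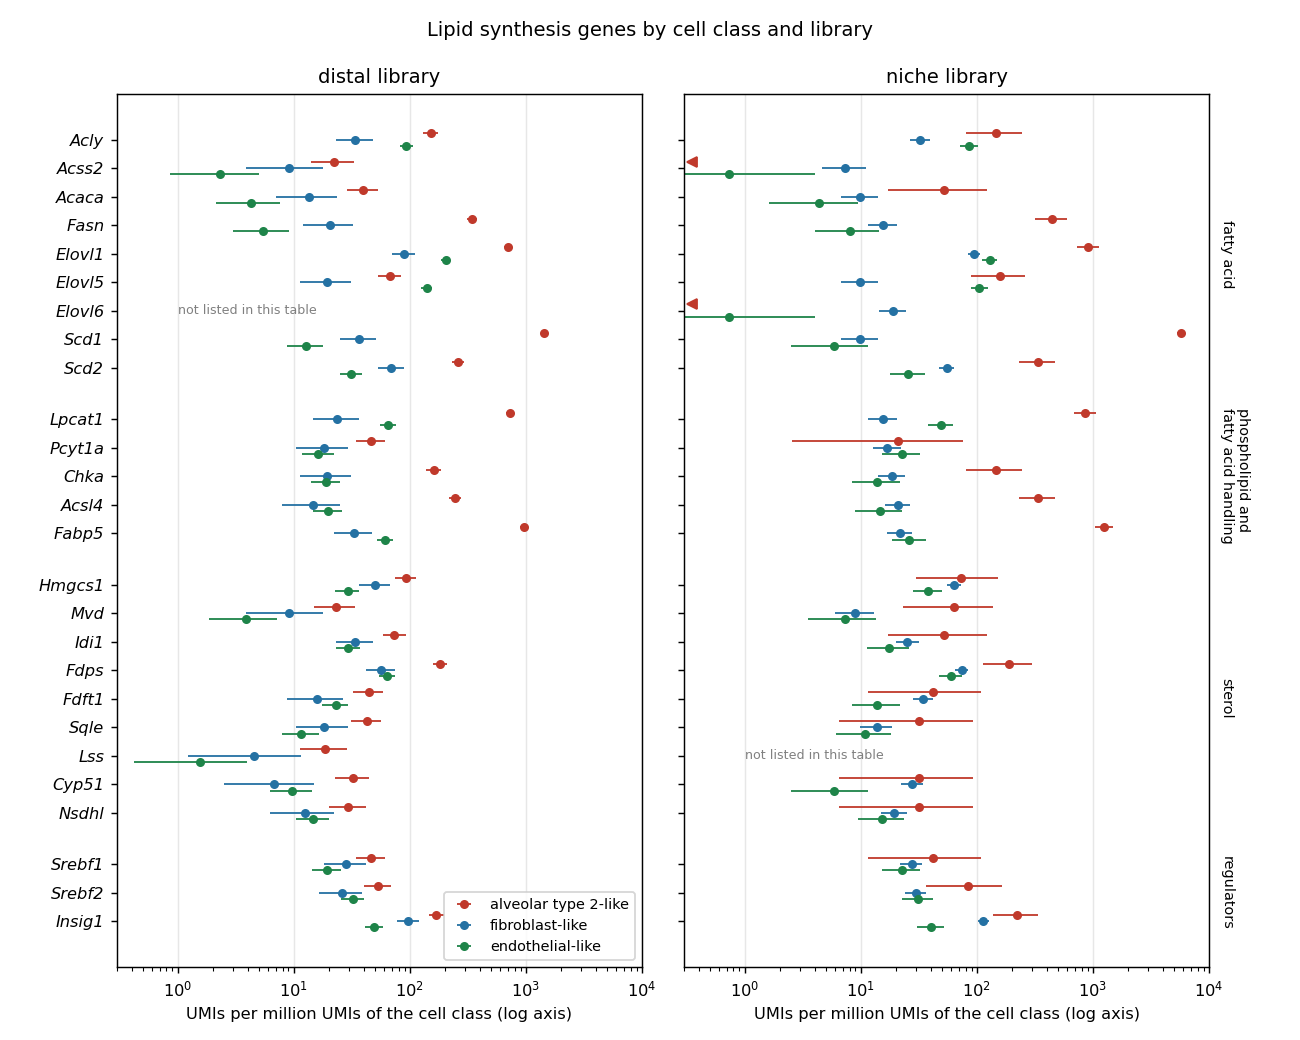
Levels of the members in 3 cell classes, distal library on the left and niche library on the right, in CPM of the class on a log axis. Points are sums over all cells of a class, bars are exact 95% Poisson intervals, and an arrowhead at the left edge marks 0 UMIs. The alveolar type 2-like points lie farthest to the right for most genes, with the widest gap for Scd1, and Elovl5 in the distal library is highest in endothelial-like cells.

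Fatty acid enzymes showed wide gaps between the cell classes. Scd1 (chr19:44394450-44407709, GRCm38.p6) and its neighbour Scd2 (chr19:44293676-44306864) encode stearoyl-CoA desaturases, which put the first double bond into a saturated chain. Scd1 stood at 1435 CPM in distal alveolar type 2-like cells (interval 1365 to 1508), 36.2 in fibroblast-like cells (24.8 to 51.2) and 12.8 in endothelial-like cells (8.81 to 18.0). The niche levels of the same 3 classes were 5726 (5255 to 6228), 9.90 (6.73 to 14.1) and 5.84 (2.52 to 11.5). The alveolar type 2 level was thus 39.0-fold the fibroblast level in the distal and 569.7-fold in the niche library. Free RNA alone would give 11.8 in distal and 9.60 in niche endothelial-like cells, so Scd1 there was not above background. Scd2 was less restricted. Its level was 260.0 (231 to 292) in distal and 337 (230.4 to 475) in niche alveolar type 2-like cells. It was 69.1 (52.9 to 88.8) and 54.9 (47.0 to 63.8) in fibroblast-like cells, and 31.4 (24.95 to 39.0) and 25.5 (17.8 to 35.5) in endothelial-like cells, in the same order in both libraries.

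Fasn, the synthase that builds palmitate, was measured at 345 (311 to 382) in distal and 442 (319 to 598) in niche alveolar type 2-like cells. It was lower in the other classes, at 20.4 and 15.6 in fibroblast-like and 5.43 and 8.03 in endothelial-like cells of the distal and niche library. Elovl1, which lengthens saturated very long chains, reached 698 (649 to 749) and 905 (724 to 1118) in alveolar type 2-like cells. In endothelial-like cells it stood at 204 (187 to 222) in the distal and 129 (111 to 149.7) in the niche library, and in fibroblast-like cells at 88.3 (69.8 to 110.3) and 95.2 (84.7 to 107). Elovl5, which lengthens polyunsaturated chains, differed from the other fatty acid enzymes: its distal level was 139 (125 to 154) in endothelial-like, 67.3 (52.8 to 84.6) in alveolar type 2-like and 19.3 (11.2 to 30.8) in fibroblast-like cells. In the niche library it was 105 (88.6 to 124), 158 (88.4 to 260.4) and 9.90 (6.73 to 14.1), so that the first 2 classes did not differ beyond counting error. Acly, which makes cytosolic acetyl-CoA from citrate, was at 151 (129 to 176) in distal alveolar type 2-like and 93.5 (82.0 to 106) in endothelial-like cells, a gap of less than 2-fold, and at 34.0 (22.9 to 48.5) in fibroblast-like cells. Acaca, the carboxylase that makes malonyl-CoA, and Acss2, which makes acetyl-CoA from acetate, were low, at 39.6 and 22.1 in distal alveolar type 2-like cells. Acss2 had 0 UMIs in the 17 niche cells, which allows a level of up to 31.6 by a limit of 3 UMIs and 38.8 by the upper end of its exact interval.

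The phospholipid and fatty acid handling genes had the highest median ratio of the 4 groups in both libraries. Their median log2 ratio of alveolar type 2-like over fibroblast-like cells was 4.001 in the distal and 4.03 in the niche library, where the medians over all genes were -0.63 and -0.19. Fabp5, a carrier of fatty acids in the cytosol, stood at 954 (897 to 1014) in distal alveolar type 2-like cells, 32.8 (21.999 to 47.2) in fibroblast-like and 61.3 (52.1 to 71.6) in endothelial-like cells, and at 1252 (1038 to 1499), 21.7 (16.9 to 27.5) and 26.3 (18.4 to 36.4) in the niche library. Lpcat1, which puts saturated chains back onto lysophosphatidylcholine, followed the same outline: 730.1 (680.2 to 783), 23.8 (14.7 to 36.4) and 64.8 (55.3 to 75.4) in the distal and 863 (686 to 1071), 15.6 (11.6 to 20.7) and 48.9 (37.9 to 62.1) in the niche library. Lpcat1 was at least 2-fold higher in endothelial-like than in fibroblast-like cells in both libraries, while Fabp5 stayed under 2-fold in the distal library and had an interval that included equality in the niche library. Acsl4, which activates arachidonic acid, was measured at 244 (216 to 276), 14.7 (7.84 to 25.2) and 19.8 (14.7 to 26.0) in the distal and 337 (230.4 to 475), 20.8 (16.0 to 26.5) and 14.6 (8.92 to 22.5) in the niche library. Chka, the choline kinase that opens the route to phosphatidylcholine, reached 160.4 (137 to 186) and 147 (80.6 to 247) in alveolar type 2-like cells and at most 19.3 in the other 2 classes. Pcyt1a, the rate-setting enzyme of that route, had the smallest gap of the 5, at 46.1 (34.2 to 60.8) in distal alveolar type 2-like against 18.1 (10.4 to 29.4) in fibroblast-like cells.

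Sterol enzymes were also higher in alveolar type 2-like cells, with smaller ratios. Their median log2 ratio over fibroblast-like cells was 1.24 in the distal library, and 7 of 8 were called higher, all but Hmgcs1. Fdps, which makes farnesyl diphosphate, was at 183 (159 to 211) in distal alveolar type 2-like, 56.6 (42.0 to 74.7) in fibroblast-like and 63.6 (54.2 to 74.1) in endothelial-like cells, and at 189 (112 to 299), 74.4 (65.2 to 84.6) and 59.8 (47.6 to 74.3) in the niche library. Hmgcs1, the cytosolic HMG-CoA synthase, was at 92.2 (75.01 to 112), 49.8 (36.2 to 66.9) and 29.1 (22.9 to 36.5) in the distal and 73.7 (29.6 to 152), 63.9 (55.3 to 73.4) and 38.0 (28.3 to 49.8) in the niche library. Idi1, which isomerises the 5-carbon building block, was at 73.8 (58.5 to 91.8), 34.0 (22.9 to 48.5) and 29.5 (23.2 to 36.9) in the distal and 52.6 (17.1 to 123), 25.2 (19.97 to 31.4) and 17.5 (11.2 to 26.1) in the niche library. In the niche library only Fdps and Mvd, the mevalonate diphosphate decarboxylase, were called higher in alveolar type 2-like than in fibroblast-like cells, and 5 of the 8 sterol genes had 5 or fewer UMIs there. Lss, the cyclase that forms lanosterol, was at 18.4 (11.3 to 28.5), 4.53 (1.23 to 11.6) and 1.55 (0.423 to 3.97) in distal alveolar type 2-like, fibroblast-like and endothelial-like cells.

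The regulators had the lowest median ratios of the 4 groups, at log2 0.81 in the distal and 0.99 in the niche library over fibroblast-like cells. Srebf1, the factor best known for fatty acid genes, stood at 46.1 (34.2 to 60.8) in distal alveolar type 2-like, 28.3 (18.3 to 41.8) in fibroblast-like and 19.4 (14.4 to 25.6) in endothelial-like cells, and at 42.1 (11.5 to 108), 27.5 (21.97 to 33.9) and 22.6 (15.4 to 32.1) in the niche library. Srebf2, the factor best known for sterol genes, stood at 53.5 (40.6 to 69.1), 26.1 (16.5 to 39.1) and 32.2 (25.6 to 39.9) in the distal and 84.2 (36.4 to 166), 29.7 (24.0 to 36.4) and 31.4 (22.7 to 42.3) in the niche library. Transcript levels say nothing of the cleaved, active form of these proteins. Insig1 was at 169.6 (146 to 196), 96.3 (76.9 to 119) and 49.3 (41.1 to 58.6) in the distal and 221 (137 to 338), 114 (102 to 126) and 40.1 (30.2 to 52.3) in the niche library, so that its order was alveolar type 2-like, fibroblast-like and then endothelial-like cells in both.

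Between fibroblast-like and endothelial-like cells, members were called about as often as all genes, in both directions. In the distal library, Acss2, Acaca, Fasn, Scd1 and Scd2 were called higher in fibroblast-like cells (5 of 24, against 14.4% of all genes), and Acly, Elovl1, Elovl5 and Lpcat1 higher in endothelial-like cells (4 of 24, against 16.0%). In the niche library the genes called were Acss2, Scd2, Fdft1, Cyp51 and Insig1 for fibroblast-like cells (5 of 24, against 12.9%) and Acly, Elovl5 and Lpcat1 for endothelial-like cells (3 of 24, against 16.3%). Elovl5 had the widest gap, 7.03-fold in the distal and 10.5-fold in the niche library.

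Between the libraries, few members differed within a class. Among alveolar type 2-like cells, 2 of 24 were called higher in the niche library, Scd1 and Elovl5 (4.15% of all genes), and 0 lower (0.761%). Their median log2 ratio was 0.27, or 0.34 with Acss2 set at 3 UMIs, beside 0.29 over all genes measured. The niche sum rests on 17 cells. Scd1 had 544 UMIs in these 17 cells and 1557 in the 215 distal cells, a 3.99-fold higher level (log2 ratio 1.997, interval 1.85 to 2.14). All 17 niche cells held Scd1, from 1.58 to 161.55 UMIs per 10000 UMIs of the cell with a median of 53.7, while the distal cells ran from 0 to 144.06 with a median of 10.9. The ranges overlap, but 16 of the 17 niche cells lay above the distal median and 3.72% of the distal cells above the niche median. With the Scd1 UMIs of the 3 niche and 3 distal cells with the most of them set aside, the log2 ratio was 1.45. The other UMIs of these cells stayed in the class totals. Cells of 1 library are not replicates of a condition. For comparison, Fasn had a median of 3.58 per 10000 in niche and 2.87 in distal cells, and Scd2 a log2 ratio of 0.39 (-0.20 to 0.90). Elovl5 had 15 niche UMIs in 9 cells, at 158 (88.4 to 260.4) against 67.3 (log2 ratio 1.27, 0.32 to 2.05). It was no longer called after thinning (0.12) or with its UMIs in the 3 top cells of each library set aside (0.21). Markers of other cell types stood beside these values: the summed level of the 10 mesenchymal markers was 1010.4 CPM in niche and 471 in distal alveolar type 2-like cells, with 3 and 1 of them at 0, and that of 9 endothelial markers was 158 and 444, with 2 and 0 at 0, and their part in the result was not tested.

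**Figure D2:**
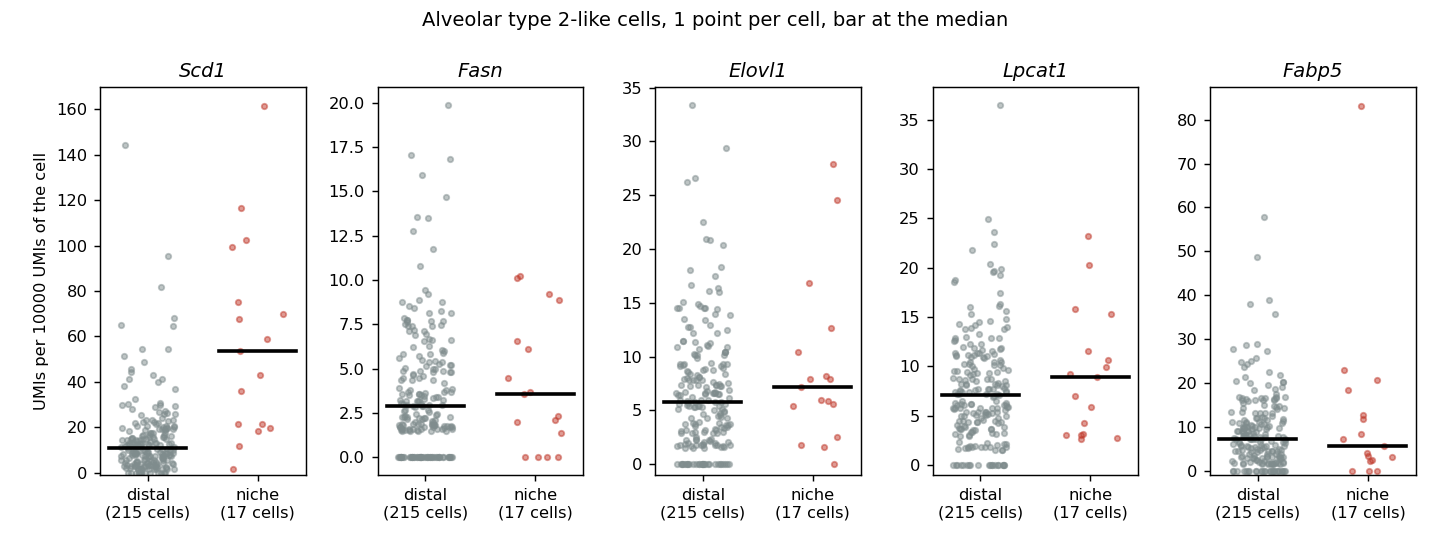
UMIs of 5 members per 10000 UMIs of the cell in alveolar type 2-like cells, 1 point per cell, 215 distal and 17 niche cells, with a bar at the median. For Scd1 the niche median is 53.7 and the distal median 10.9, while for Fasn, Elovl1, Lpcat1 and Fabp5 the medians of the 2 libraries lie close together.

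**Figure D3:**
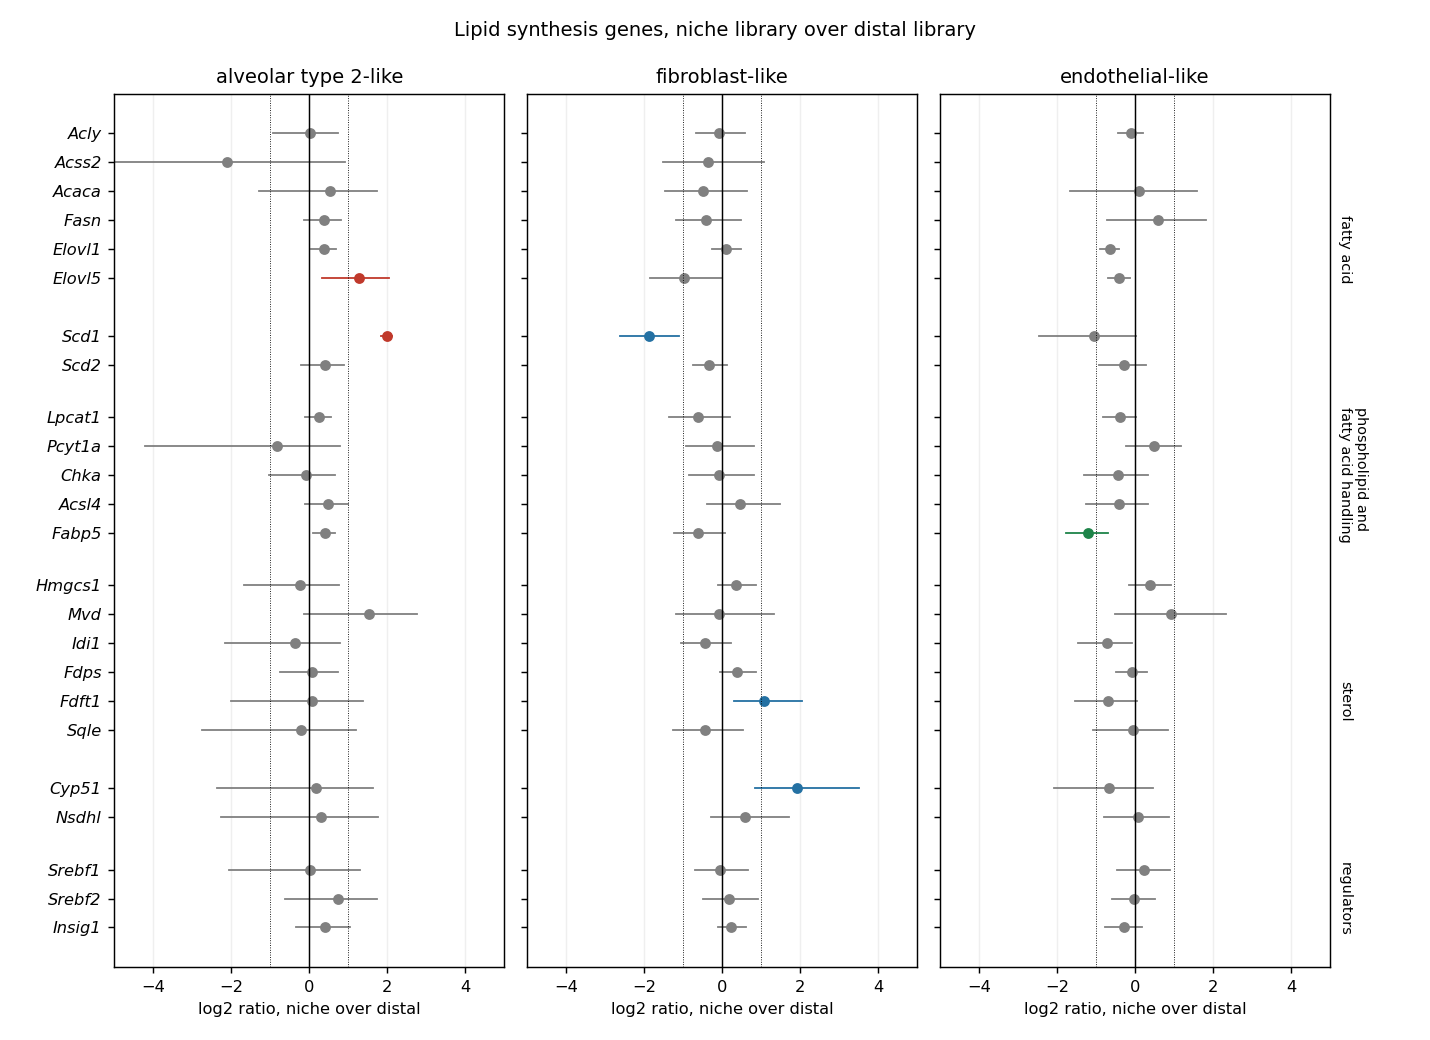
Log2 ratio of niche over distal levels of each member in 3 cell classes, with exact 95% intervals of counting error, dotted lines at 2-fold. Coloured points pass 2-fold with an interval that excludes equality: Elovl5 and Scd1 in alveolar type 2-like, Scd1, Fdft1 and Cyp51 in fibroblast-like and Fabp5 in endothelial-like cells.

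Among fibroblast-like cells, 2 sterol enzymes were called higher in the niche library (2 of 24, against 3.68% of all genes) and Scd1 lower (1 of 24, against 7.12%). Cyp51, the lanosterol demethylase, had 87 UMIs in 759 niche cells and 6 in 365 distal cells, at 27.8 (22.3 to 34.3) and 6.80 (2.49 to 14.8), a 3.80-fold higher level in the niche library (log2 ratio 1.92, 0.85 to 3.52). Fdft1, squalene synthase, had 108 and 14 UMIs, at 34.5 (28.3 to 41.6) and 15.9 (8.67 to 26.6), a log2 ratio of 1.08 (0.31 to 2.04). In distal and niche alveolar type 2-like cells Cyp51 was at 32.3 (22.5 to 44.9) and 31.6 (6.51 to 92.3), and in endothelial-like cells at 9.70 (6.28 to 14.3) and 5.84 (2.52 to 11.5). Fdft1 was at 44.3 (32.6 to 58.7) and 42.1 (11.5 to 108) in alveolar type 2-like and at 22.9 (17.4 to 29.5) and 13.9 (8.35 to 21.7) in endothelial-like cells. The 8 sterol enzymes had a median log2 ratio of 0.36 beside -0.15 for all genes, with 5 above 0 and 3 below. Their summed level was 268 (250.1 to 287) in the niche and 203 (174 to 235) in the distal library. The mix of clusters differed between the libraries. The clusters led by Cxcl14 and by Timp1 and Cxcl9 held 50.02% of niche but 13.2% of distal fibroblast-like UMIs. They held 71.3% of the niche Cyp51 and 63.9% of the niche Fdft1 UMIs. In the distal library they held 0 of 6 Cyp51 and 2 of 14 Fdft1 UMIs. These distal values cover only the 48 cells of the Cxcl14 cluster. The part of the mix in these ratios was not tested. Fdft1 was no longer called (log2 ratio 0.66) with equal weight for each cluster of at least 10 niche and 10 distal cells. The clusters led by Timp1 and Cxcl9 (172 niche and 2 distal cells) and by Cxcl10 (74 and 1) fell outside this setting. The ratio of Fdft1 was also not called among cells with 1000 or more genes (0.83) or after thinning (0.54). Nor was it called without the cluster led by Mustn1 and Aspn (0.97), and that of Cyp51 was not called after thinning (1.69). The level of Scd1 was 9.90 in niche against 36.2 in distal cells (log2 ratio -1.87, -2.63 to -1.11), from 31 and 32 UMIs. Of the 365 distal cells, 341 held none and 1 held 9. Free RNA of alveolar type 2 cells alone would give 4.47 and 14.9, and with that amount taken off the log2 ratio was -1.97. These amounts use the median share over 6 markers. By marker the share ran from 0.0499% to 0.0931% in niche and from 0.836% to 1.74% in distal fibroblast-like cells, and the ends of these ranges were not tried. Elovl6, which lengthens palmitate, had 59 of its 70 niche UMIs in fibroblast-like cells, at 18.8 (14.3 to 24.3). That is 84.3% (73.6 to 91.9), where these cells gave 61.4% of all niche UMIs. The 17 alveolar type 2-like cells held 0, a share with an upper limit of 5.13%, and gave 1.86% of all niche UMIs. As for Acss2, a limit of 3 UMIs there allows a level above that of fibroblast-like cells, so the 0 does not show a lower level.

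**Figure D4:**
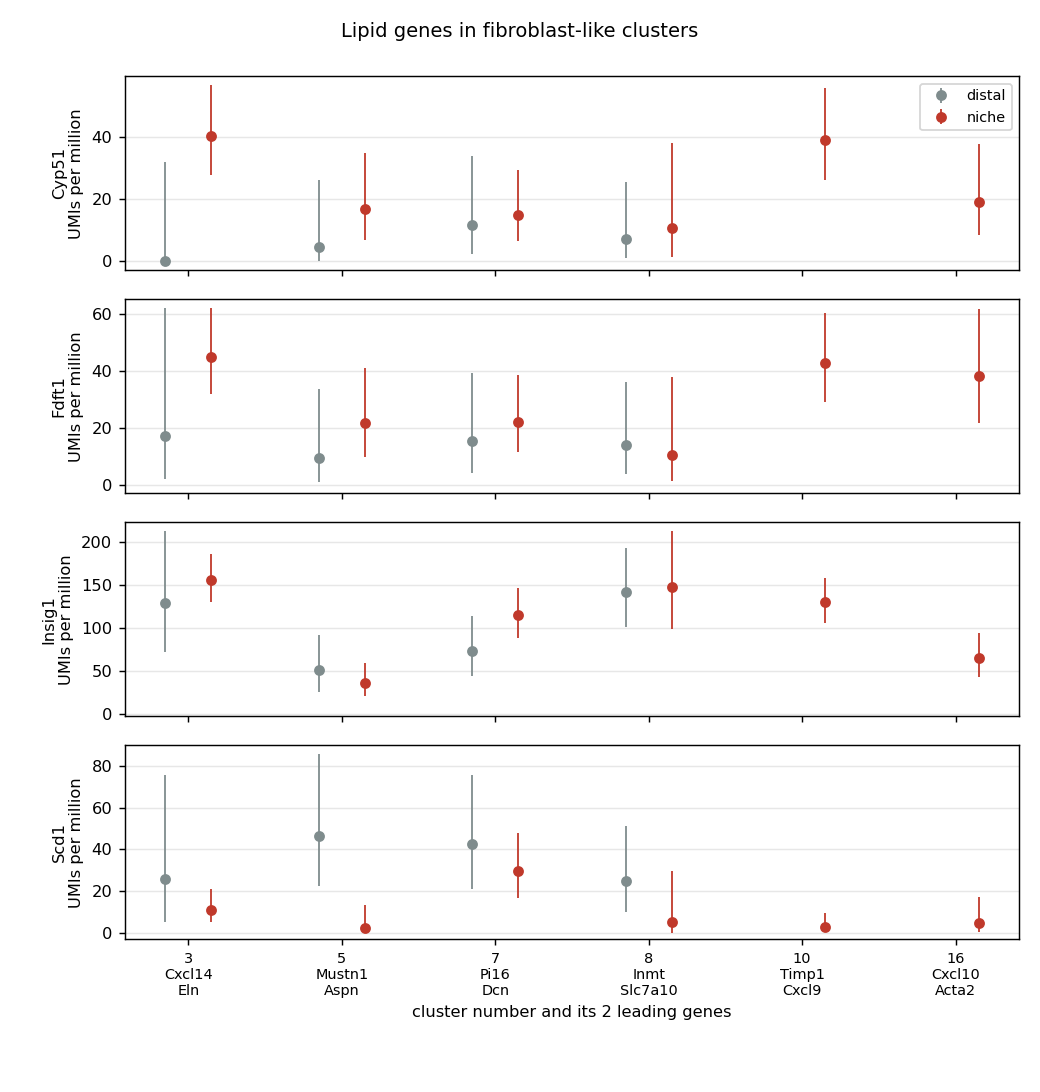
CPM of Cyp51, Fdft1, Insig1 and Scd1 in each fibroblast-like cluster with 10 or more cells in a library, with exact 95% Poisson intervals. Niche Cyp51 is highest in the clusters led by Cxcl14 (40.3) and by Timp1 (38.8), and clusters 10 and 16 have a niche point only.

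In endothelial-like cells only Fabp5 was called, lower in the niche library (1 of 23, against 1.54% of all genes), and 0 were higher (2.09%). Its level was 26.3 in niche against 61.3 in distal cells (log2 ratio -1.21, -1.79 to -0.69). Most distal Fabp5 came from few cells: the clusters led by Vwf, a venous marker, and by Scgb3a1 held 63.3% of it in 151 cells that gave 13.2% of the class UMIs. In the Scgb3a1 cluster the level was 396 (303 to 509) in the distal and 69.6 (25.5 to 151) in the niche library. Without these 2 clusters, an alternative chosen after the values were seen, the log2 ratio was -0.34 and not called. Elovl1 (-0.65, -0.91 to -0.41), Elovl5 (-0.40, -0.70 to -0.12) and Idi1 (-0.73, -1.48 to -0.07) also had intervals below 0 but did not reach 2-fold. Elovl1 was lower in the niche library in 8 of the 9 clusters, the exception being the lymphatic-like cluster led by Ccl21a (128 against 124).

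**Figure D5:**
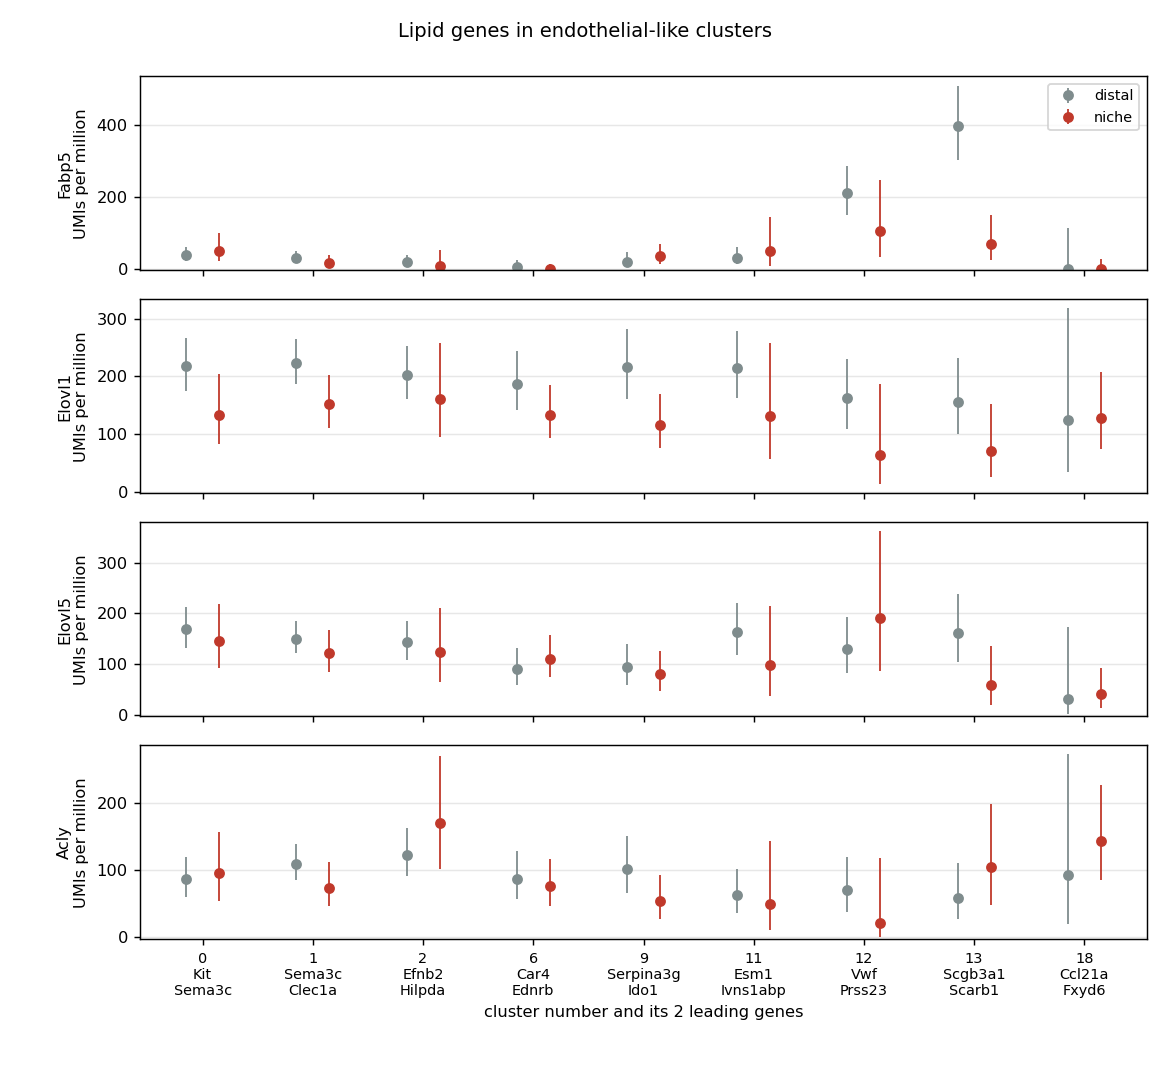
CPM of Fabp5, Elovl1, Elovl5 and Acly in each endothelial-like cluster, with exact 95% Poisson intervals. Distal Fabp5 is highest in clusters 13 (396) and 12 (209.9), and the Elovl1 points of the 2 libraries lie apart in most clusters.

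Over all cells of a library, 9 of 24 members were called lower in the niche library (6.08% of all genes) and 0 higher (5.16%): Fasn, Elovl1, Elovl5, Scd1, Scd2, Lpcat1, Chka, Acsl4 and Fabp5. Lpcat1 had the largest difference, 5.23-fold (log2 ratio -2.39, -2.61 to -2.17), and Fabp5 followed with 4.63-fold. Alveolar type 2-like cells gave 1.86% of niche and 22.8% of distal UMIs. Within these cells, of which 17 are niche cells, 0 of the 9 genes was called lower in the niche library. Within the other classes, Scd1 was called lower in fibroblast-like and Fabp5 in endothelial-like cells. The part of the mix of classes in the 9 calls was not tested. The 8 sterol enzymes had a median log2 ratio of -0.02 over all cells.

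The smaller cell classes rest on few cells and UMIs. The summed level of the 8 sterol enzymes in the distal library was 472 (305 to 696) in pericyte-like cells and 488 (244 to 874) in 9 cells of a cluster led by keratin genes, beside 521 (479 to 566) in alveolar type 2-like cells, with intervals that overlap. In the niche library it was 123 (53.1 to 242) in pericyte-like cells, 297 (238 to 365) in the keratin cluster and 516 (382 to 682) in alveolar type 2-like cells. In 29 distal alveolar type 1-like cells, the flat cells of the gas exchange surface, Scd2 stood at 1148 (929 to 1404), above its level in alveolar type 2-like cells, and Elovl1 and Chka at 302 (196 to 446) and 254 (157 to 388). In the 8 niche cells of this class Scd2 had 6 UMIs, at 331 (121 to 720.4). In the 69 niche cells of the keratin cluster, of which 54 had little Malat1, Fabp5 stood at 199 (151 to 257) and Fdps at 152 (111 to 203). In pericyte-like cells, Acly stood at 185 (95.4 to 322) in 22 niche and 169.8 (77.7 to 322) in 35 distal cells.

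Other genes of these pathways, were taken from a list of 70, of which 59 were in both tables. In the distal library 15 of 55 measured were called higher and 14 lower in alveolar type 2-like than in fibroblast-like cells, where 6.5% and 31.2% of all genes were. Against endothelial-like cells 17 of 59 were called higher and 17 lower, beside 8.16% and 39.5% of all genes. Their median log2 ratios were 0.05 and -0.07, above the -0.63 and -0.82 of all genes and below the 1.59 and 1.78 of the members, and the difference from the members was not tested. Abca3, the transporter that loads lamellar bodies (log2 ratio over fibroblast-like cells 4.65), the transcription factor Cebpa (4.39) and the fatty acid transporter Cd36 (3.61) were among the higher genes, and Apoe (-2.57) and the lysosomal lipase Lipa (1 UMI at 0.922 CPM against 70 at 79.3, log2 ratio -5.85, -11.75 to -3.90) among the lower. Between libraries, 1 of 49 was called higher and 1 lower in niche alveolar type 2-like cells (4.15% and 0.761% of all genes). Lpcat3 was the higher gene (1.53, 0.24 to 2.55). Msmo1 was the lower, with 1 niche UMI at 10.5 CPM against 82 distal UMIs at 75.6 (-2.27, -8.17 to -0.33). In fibroblast-like cells 2 of 58 were called higher and 3 lower in the niche library, beside 3.68% and 7.12% of all genes. The higher were Agpat1, an acyltransferase of phosphatidic acid synthesis (1.83), and Fabp4 (30 UMIs at 9.58 CPM against 1 at 1.13, log2 ratio 2.52, 0.49 to 8.43). The lower were Cd36 (-1.34), Lpin1 (-1.72) and Abca3 (-1.03). Abca3 and Cd36 are high in alveolar type 2-like cells, and free RNA of these cells was not taken off these ratios. In endothelial-like cells 0 of 59 were called higher and 4 lower (2.09% and 1.54% of all genes), among them Mbtps2, a protease that releases SREBP (-1.22), and Acsl3, which activates long-chain fatty acids (-1.90).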

How the data were processed

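The authors deposited 1 table of unnormalized UMI counts for each library. The labels' protocols name Chromium 3' reagents, and the tools credited to the submitters' processing notes are R 3.4.1 and Cell Ranger 2.1.1, with mm10 as the build. How reads shared by related genes, such as Scd1 and Scd2 or Fabp5 and its copies, were counted is not given in the sources used here. Filters of 500 or more genes and no more than 10% mitochondrial UMIs left 1423 niche and 1987 distal cells with 5139368 and 4781222 UMIs. Counts scaled to 10000 per cell were logged, and 2000 variable genes without the members and other pathway genes, 20 principal components, 15 neighbours and Leiden resolution 1 gave 20 clusters (Python 3.11.15, scanpy 1.11.5, leidenalg 0.10.2, igraph 0.11.9, scipy 1.17.1), named "like" a type from marker lists. With the members included, 99.9% of cells kept their class. Doublets were called with Scrublet and not removed; removing them was tried.

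The UMIs of a gene were summed per class and library and scaled to the class total over genes in both tables. Levels have exact Poisson intervals. Log2 ratios have 0.5 UMI added to each sum and an exact conditional binomial interval, and need 10 UMIs over both sums. A gene was called higher or lower at 2-fold with an interval that excludes equality, which is not a test between conditions. The intervals, the calls and the thinning were tried on simulated counts. Those for the intervals and calls were drawn per class without spread between cells, so they cannot show how such spread affects the intervals. The 24 members listed in both tables enter the counts and medians. Values in every class are given for the 3 with the most UMIs of each role, those called between libraries and the pairs Scd1 with Scd2 and Srebf1 with Srebf2. Sqle and Nsdhl are covered by counts and medians only, and Mvd is named without its levels. Up to 3 pathway genes per direction are named by the interval bound farthest from equality; 1 gene that this rule names is not reported here. Members and lists were chosen with earlier results of these data known. Another 18 settings were tried, and 3 more that were chosen after seeing the data.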

Additional observations from a re-analysis of the deposited data

Results flagged for a closer look

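For 4 members the niche to distal log2 ratios of 2 cell classes had intervals on opposite sides of 0. The difference between the classes was not tested. Scd1 was at 1.997 in alveolar type 2-like and -1.87 in fibroblast-like cells. Elovl5 was at 1.27 in alveolar type 2-like cells, -0.98 in fibroblast-like and -0.40 in endothelial-like cells. Elovl1 was at 0.38 in alveolar type 2-like and -0.65 in endothelial-like cells, and Fabp5 at 0.40 and -1.21. Of the 119 niche alveolar type 2 UMIs of Fabp5, 56 came from 1 cell. With the Fabp5 UMIs of the 3 top cells of each library set aside, the value there was -1.18. Every alveolar type 2 value rests on 17 niche cells. Elovl6 had 70 UMIs in the niche table and Lss 28 in the distal table, each a gene outside the comparisons because the other table does not list it.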

How the results depend on the processing

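No paired analysis was possible because each group is 1 library. Of the recomputed counts and medians of the members, 298 stayed within 1.5 times the count or the spread used, and 12 moved. Another alternative took off, for each member, its own UMIs in the 3 cells with the most of them in each class and library. The other UMIs of these cells stayed in the class totals. Levels therefore fall by construction, and can fall most in a class with few cells, such as the 17 niche alveolar type 2-like cells. Then 6 members were called between the libraries in alveolar type 2-like cells (1 higher, 5 lower) with a median of -1.32, 9 in niche alveolar type 2-like over fibroblast-like cells with a median of 0.42, 8 over endothelial-like cells with a median of 0.71, and 2 between the libraries in endothelial-like cells, and Acaca turned to -0.68 in niche alveolar type 2-like over fibroblast-like cells. After thinning to 1200 UMIs the first 3 counts were 1, 7 and 6. Without the clusters led by Scgb3a1 and by Vwf, 0 members were called between the libraries in endothelial-like cells. With each cell weighing the same, the median over all cells was -0.31. Beyond the fewer cells and the UMIs taken off, the cause of these shifts was not tested. Scd1 was called in all 14 alternatives in alveolar type 2-like cells (1.45 to 2.07) and all 19 in fibroblast-like cells (-2.14 to -1.12). Some of these could not change the call, because the other filters on UMIs leave Scd1 in. For alveolar type 2-like cells, Leiden resolutions 0.5 and 2 also gave the same numbers of cells, 17 niche and 215 distal. The number of niche alveolar type 2-like cells, 17 with 95012 UMIs in all, limits the values of sterol genes there, while depth per cell was like that of the distal cells.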
